A study of Rattus norvegicus with 36 samples.

Results

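Striatal gene expression was compared between rats raised in an enriched environment (EE) and rats that had undergone maternal separation (MS). The comparison took 24 of the 36 RNA-seq libraries of the series, chosen by the environment given in the sample labels, where maternal separation is written as ELS. Of these, 12 libraries came from EE animals and 12 from MS animals, and each set held 6 wildtype (WT) and 6 BACHD transgenic (TG) rats, giving the groups WT_EE, TG_EE, WT_MS and TG_MS. All animals were Sprague Dawley males of 2 months. The other 12 libraries, from the standard environment (SE), had no weight in the comparison. They entered the choice of tested genes by mean count, the normalization, and the estimates of the spread between animals and of the run effects. They also entered the principal component described further below. TG rats carry the whole human huntingtin gene with a mutant first exon on a bacterial artificial chromosome with its own regulatory sequence, and they were bred from heterozygous fathers and wildtype mothers. EE animals lived in large groups in large cages with nesting material and changing objects from weaning to the end of the experiment. MS pups were taken from their mothers for some hours of each day before weaning and then lived in standard cages, so that the comparison sets a treatment after weaning against one before it. Whole litters were allocated to an environment, and the labels give neither litter nor cage. The p-values thus set each difference against the spread between animals of the 36 libraries and do not account for litters. The effects of litter and of environment cannot be told apart.

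The striatum is the main input nucleus of the basal ganglia, and its medium spiny neurons are the cells most vulnerable in Huntington disease. In rodents, enrichment is widely used as a stimulating, protective condition, whereas repeated separation from the mother is used as early life stress that can alter the stress axis for life. Comparing both conditions directly asks whether the striatal transcriptome of young adults differs between opposite ends of this range, and whether it does so alike in the presence of mutant huntingtin.

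The count table held 23965 genes by Ensembl identifier, and 12657 of them, those whose raw counts averaged 50 or more over the 36 libraries, were tested. Total counts of the 24 libraries ranged from 9895073 to 15307438 with a median of 12575971.5. The table holds no gene symbols, so that striatal markers, genes of other cell types and huntingtin itself were not analysed here, and genes are given by identifier or by their place in the comparison. As a check of the genotype labels, the gene with the largest TG/WT rise, chosen on these values, reached at least 55.45 CPM (normalized count scaled to library size, as edgeR gives it) in every TG animal of EE and MS and at most 6.672 CPM in every WT animal. Its EE/MS log2 fold change was 0.03 (standard error 0.119, edgeR adjusted p = 0.999). Libraries carry consecutive numbers, and every 6 numbers in a row form a run with 1 animal per group. The run was used as a block, animals are named by group and run, and the labels do not say whether a run was handled together. WT_EE 6 and TG_EE 6 stood apart from the other 22 EE and MS libraries in a set of 50 genes described further below, and results that rest on them are given with and without both.

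Averaged over the genotypes, 0 of 12657 genes were called in EE/MS (0%), with edgeR's quasi-likelihood test, where a call needed an adjusted p (Benjamini-Hochberg) up to 0.1 together with a log2 fold change of 0.3 or more in either direction. The smallest adjusted p was 0.935. DESeq2 with the same design also called 0 genes, with a smallest adjusted p of 0.324. At an unadjusted p under 0.05 there were 561 genes (4.43%), 290 of them higher and 271 lower in EE, where a test without any difference would give 5% on average. The distribution of p-values showed no excess of small values. Without WT_EE 6 and TG_EE 6, the count of calls was also 0, and an unadjusted p under 0.05 was found for 516 genes.

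**Figure D1:**
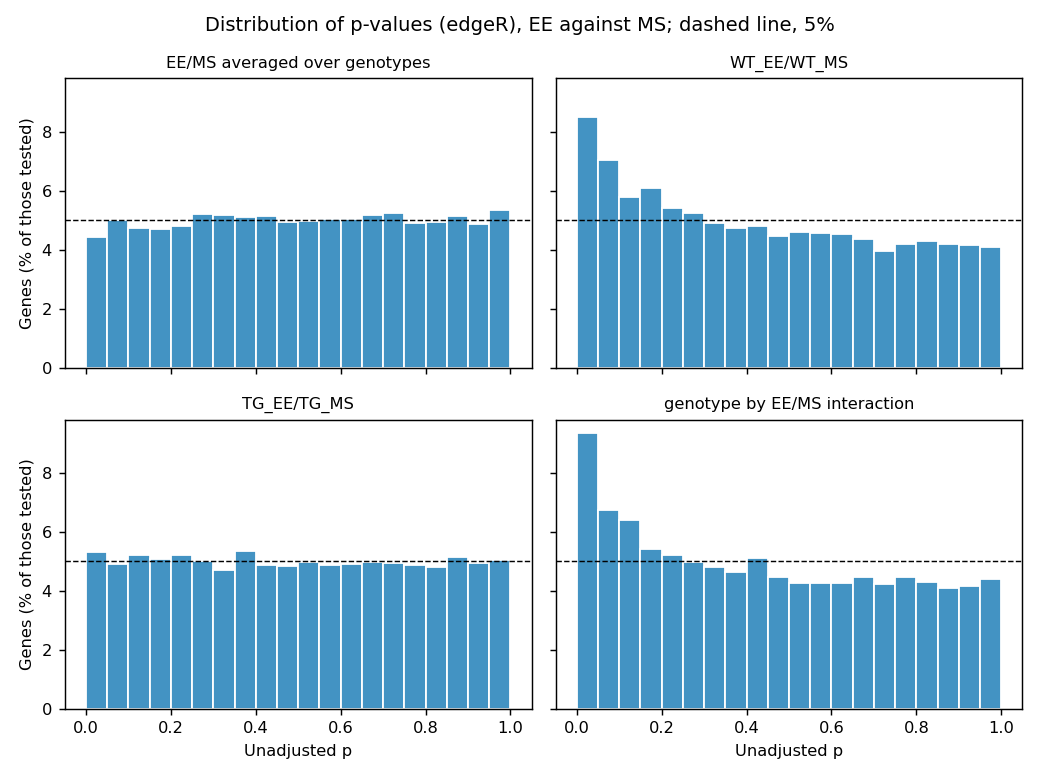
Share of the 12657 tested genes (y axis, percent) in each interval of the unadjusted edgeR p-value (x axis) for EE/MS averaged over genotypes, WT_EE/WT_MS, TG_EE/TG_MS and the genotype by EE/MS interaction, with a dashed line at 5%. The leftmost bar reaches 4.43%, 8.49%, 5.33% and 9.34% of genes in these comparisons.

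The absence of calls went with narrow intervals for most genes. The median standard error of the log2 fold change was 0.0577, and the median 95% confidence interval extended 0.118 to either side. For 11300 genes (89.3%), the whole interval lay within a log2 fold change of ±0.3, and for 12622 genes (99.7%) it lay within ±1. Precision followed the expression level. With genes ranked by mean count and divided into 5 equal bins, 65.6% of the bin with the lowest counts (means of 50 to 127 reads) had an interval within ±0.3, compared to 98.1% of the bin with the highest counts. A difference of ±0.3 was therefore not excluded for the remaining genes. The intervals hold for 1 gene at a time and do not account for litters, which are unknown. For the other genes they thus limit the difference between these animals and not the effect of the environment. Within 1 genotype, where 6 animals stood against 6, the intervals were wider, and 67.4% of genes in WT and 71.0% in TG had an interval within ±0.3. In the lowest bin this share was 22.5% in WT and 26.1% in TG.

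**Figure D2:**
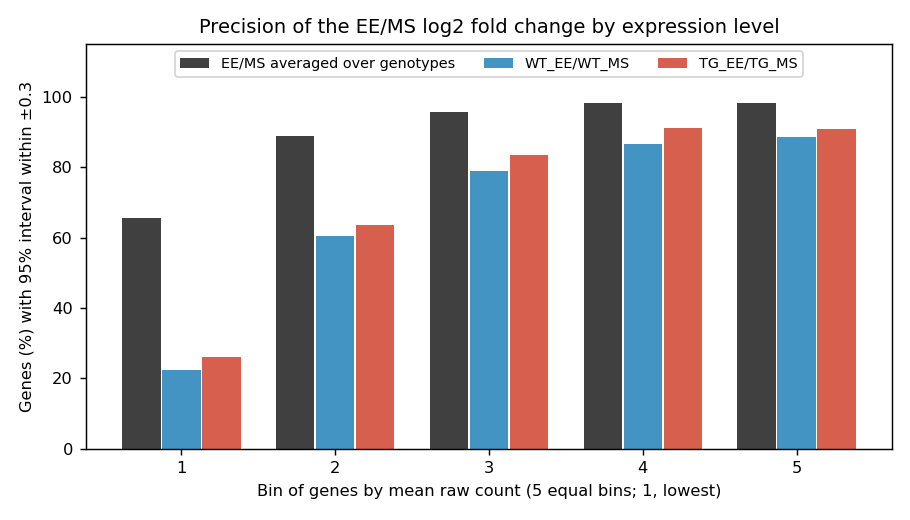
Share of genes whose 95% confidence interval of the EE/MS log2 fold change lies within ±0.3 (y axis, percent), by bin of genes ranked on mean raw count (x axis, 5 equal bins, 1 is the lowest), for the average over genotypes, WT and TG. For the average the share goes from 65.6% in the lowest to 98.1% in the highest bin, and in every bin it is above the share within either genotype.

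The genes closest to a call in the averaged comparison are given by the 2 smallest p-values in each direction, and 0 of these 4 genes passed the threshold, each with an adjusted p of 0.935 in edgeR. ENSRNOG00000014795 was higher in EE. It ranged from 18.16 to 22.27 CPM in WT_EE with a median of 19.44, and from 14.58 to 17.59 CPM in WT_MS with a median of 15.79. These groups did not overlap. In TG_EE it ranged from 15.85 to 20.17 CPM (median 18.74) and in TG_MS from 13.37 to 19.34 CPM (median 16.94), so that the groups overlapped. The log2 fold change was 0.26 (standard error 0.0654, unadjusted p = 0.000334) over both genotypes, 0.35 in WT and 0.18 in TG. EE was higher in 11 of 12 pairs of animals from the same run and genotype. The SE animals had 19.51 ± 2.60 CPM (SD, n = 12), close to the 19.32 ± 1.75 CPM of EE, whereas MS animals had 16.10 ± 1.89 CPM.

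ENSRNOG00000048243 was also higher in EE, at a level low enough for the animals to scatter widely. In WT_EE it ranged from 6.717 to 11.26 CPM (median 7.404), compared to 4.153 to 8.363 CPM in WT_MS (median 5.927). In TG_EE the range was 4.175 to 8.334 CPM (median 6.961) and in TG_MS 3.793 to 7.547 CPM (median 5.128). EE and MS overlapped in both genotypes, and 2 of 12 EE animals lay above all MS animals. The log2 fold change was 0.41 (standard error 0.102, unadjusted p = 0.00036), with EE higher in 10 of 12 pairs. The SE animals, with 6.401 ± 1.58 CPM (SD, n = 12), lay between EE (7.453 ± 1.68 CPM) and MS (5.599 ± 1.32 CPM).

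ENSRNOG00000016545 was lower in EE and had the smallest p of the averaged comparison. It ranged from 68.90 to 99.41 CPM in WT_EE (median 82.00) and from 82.56 to 104.2 CPM in WT_MS (median 94.85). In TG_EE, 4 animals had 60.59 to 68.38 CPM and the other two 89.34 and 96.50 CPM, while TG_MS ranged from 88.62 to 103.4 CPM (median 94.51). Over both genotypes, 8 of 12 EE animals lay below all MS animals. The log2 fold change was -0.30 (standard error 0.07, unadjusted p = 0.000154), and EE was lower in 11 of 12 pairs. MS animals had 95.13 ± 7.40 CPM (SD, n = 12) and SE animals 92.52 ± 9.97 CPM, compared to 77.52 ± 13.6 CPM in EE. Without WT_EE 6 and TG_EE 6 the log2 fold change was -0.34 (unadjusted p = 4.2e-05). In DESeq2 without these animals it was the 1 gene called in EE/MS, with an adjusted p of 0.0351. With all animals its DESeq2 adjusted p was 0.324. TG_EE 6 was the TG_EE animal with 96.50 CPM, so leaving it out lowers the EE level and favours the call.

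ENSRNOG00000021031 was lower in EE by a smaller step. It ranged from 41.08 to 45.88 CPM in WT_EE (median 44.36) and from 44.05 to 49.40 CPM in WT_MS (median 47.60), an overlap of the groups. In TG_EE the range was 38.37 to 44.53 CPM (median 41.46) and in TG_MS 44.34 to 54.53 CPM (median 48.02), an overlap of the highest EE with the lowest MS animals. The log2 fold change was -0.16 (standard error 0.0379, unadjusted p = 0.000256), below the minimum of 0.3 in size, and EE was lower in 10 of 12 pairs. The SE animals had 45.84 ± 3.00 CPM (SD, n = 12), between EE (42.78 ± 2.56 CPM) and MS (47.70 ± 3.00 CPM). For these 4 genes the EE/MS difference had the same sign in WT and TG, and its interaction with genotype had unadjusted edgeR p-values of 0.107 to 0.619. The choice of these genes on the average of both genotypes largely fixes the shared sign and the agreement of pairs. It also favours a weak interaction, so these values are a description.

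**Figure D3:**
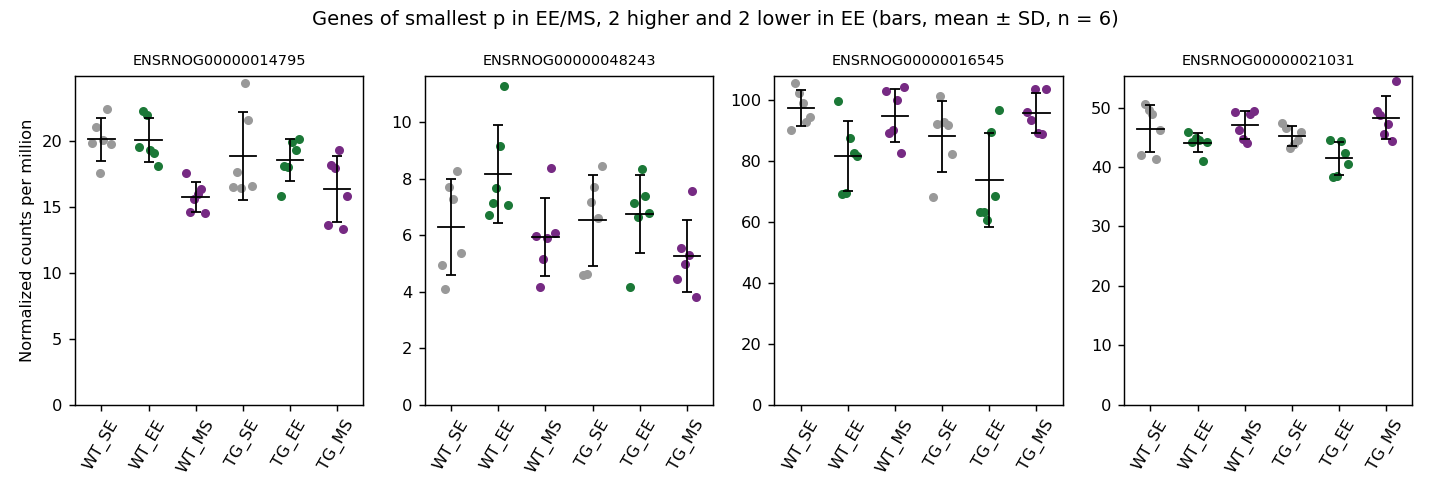
Normalized CPM (y axis, starting at 0) of the 4 genes with the smallest p of EE/MS in each direction, for every animal of the 6 groups (x axis); points are animals, horizontal lines the mean and error bars the SD (n = 6). The first 2 genes lie higher in EE (green) than in MS (purple) and the last 2 lower, with overlap between EE and MS animals in every gene over both genotypes.

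Over all genes, the direction of the EE/MS difference was also counted in pairs of animals from the same run and genotype. In all 12 pairs, 1 of 12657 genes (0.0079%) differed in the same direction, and it was lower in EE. In the 6 WT pairs alone, 590 genes (4.66%) differed in 1 direction, 322 higher and 268 lower in EE. In the 6 TG pairs, 335 genes (2.65%) did so, 149 higher and 186 lower. Of the 9 genes with 1 direction in all 6 WT pairs and 1 direction in all 6 TG pairs, 8 had opposite directions in WT and TG.

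Within WT animals, 0 genes were called in WT_EE/WT_MS (0%) by edgeR, whose smallest adjusted p was 0.44. DESeq2 called 0 genes. Small p-values were more frequent than in the averaged comparison, with 1075 genes (8.49%) at an unadjusted p under 0.05, of which 633 were higher and 442 lower in WT_EE. This order depended on the covariates, since with surrogate variables in place of runs there were 583 such genes in WT and 725 in the averaged comparison, and with surrogate variables and runs 560 and 678. The WT animal WT_MS 1 mattered for the calls, since edgeR called 4 genes without it, 3 of them higher in WT_EE. The gene with the smallest p had 18.7 to 23.58 CPM in WT_EE (median 21.26) and 14.28 to 17.86 CPM in WT_MS (median 17.03), without overlap. Its log2 fold change was 0.34 in WT (standard error 0.0788), whereas in TG it was -0.15 (standard error 0.0782). Among the genes lower in WT_EE, the smallest p belonged to a gene with 26.58 to 33.57 CPM in WT_EE (median 29.56) and 31.58 to 38.21 CPM in WT_MS (median 35.09). These groups overlapped, and its log2 fold change was -0.23 in WT (standard error 0.0569) and 0.01 in TG (standard error 0.0566). Both genes were chosen on their p in WT. That choice favours separated WT groups and a weaker or opposite change in TG, so these values are a description.

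Within TG animals, 0 genes were called in TG_EE/TG_MS (0%) by edgeR, whose smallest adjusted p was 0.459. An unadjusted p under 0.05 was found for 674 genes (5.33%). Of these, 278 were higher and 396 lower in TG_EE. DESeq2 called 2 genes (0.0158%), 1 in each direction, and these were the genes with the smallest p-values in edgeR. The lower one had 3.17 to 5.25 CPM in TG_EE (median 4.553) and 5.241 to 10.74 CPM in TG_MS (median 7.236), where the highest TG_EE animal lay just above the lowest TG_MS animal. Its log2 fold change was -0.75 in TG (standard error 0.161) and 0.18 in WT (standard error 0.158). The higher one had 8.411 to 12.19 CPM in TG_EE (median 10.32) and 4.97 to 8.466 CPM in TG_MS (median 6.596). Its log2 fold change was 0.66 in TG (standard error 0.144) and -0.08 in WT (standard error 0.151). Both genes were of low expression, and in both the TG_EE and TG_MS ranges overlapped by their extreme animals. As they were chosen on their p in TG, separated TG groups and a weaker or opposite change in WT were favoured, and the values are a description.

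Whether the EE/MS difference itself depended on genotype was tested as an interaction. In edgeR, 0 genes were called (0%), as the smallest adjusted p was 0.227. An unadjusted p under 0.05 was found for 1182 genes (9.34%). Of these, the TG difference lay above the WT difference in 480 and below it in 702. With surrogate variables in place of runs, 487 genes were at this level. DESeq2 with the same design called 27 genes (0.213%), 9 with the TG difference above and 18 with it below the WT difference. All 27 had an unadjusted p of 5.72e-05 to 0.000687 in edgeR, with adjusted p-values of 0.227 to 0.256, so that the tools differed in the threshold passed and in no direction. The call in edgeR was sensitive to single animals of run 1, with 14 genes called without WT_MS 1, 14 without TG_MS 1 and 16 without all libraries of run 1. Without WT_EE 6 and TG_EE 6, edgeR called 0 genes and DESeq2 36, of which 18 were among the 27.

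The gene with the smallest interaction p had 57.66 to 72.84 CPM in WT_EE (median 67.24) and 43.77 to 62.9 CPM in WT_MS (median 56.26). In TG_EE it had 46.47 to 66.34 CPM (median 56.45) and in TG_MS 49.26 to 73.26 CPM (median 65.44). EE thus lay higher in WT, by 0.27 on the log2 scale, and lower in TG, by a log2 fold change of -0.22, with overlapping ranges in both genotypes. The gene with the smallest p among those with the opposite pattern had 110.5 to 203.4 CPM in WT_EE (median 128.2) against 129.8 to 417.1 CPM in WT_MS (median 191.4), and 144.5 to 309.9 CPM in TG_EE (median 213.8) against 104.5 to 189 CPM in TG_MS (median 144.9). Its log2 fold change was -0.78 in WT and 0.60 in TG. The 27 genes were chosen on the interaction, and their pattern is given as a description. All 27 had EE/MS changes of opposite sign in WT and TG. The 18 genes with the TG difference below had a median log2 fold change of 0.30 in WT and -0.26 in TG, and the 9 with it above had -0.25 in WT and 0.19 in TG.

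Across all 12657 genes, the EE/MS log2 fold changes in WT and in TG went in the same direction in 43.9% of genes. These fold changes share no animal, but they share runs and normalization. WT and TG animals of an environment may also share litters, which the labels do not give. Spearman's rho was -0.167, whereas Pearson's r, which gives large fold changes more weight, was 0.181. Without WT_EE 6 and TG_EE 6, rho was -0.183 and r -0.148. Among the 1075 genes with an unadjusted p under 0.05 in WT, 360 (33.5%) had the same direction in TG, and among the 674 genes in TG, 240 (35.6%) had the same direction in WT. In the 94 genes below this level in both genotypes, the direction was the same in 13 and opposite in 81. This pattern rested in large part on run 2. Without its libraries, rho was -0.0105 and 50.4% of genes went in the same direction. An unadjusted p under 0.05 in both genotypes was then found for 44 genes, 21 of them with the same and 23 with opposite directions. The pattern was also weaker without run 5, where rho was -0.0658 and 47.7% of genes went in the same direction. Below this level in both genotypes were then 53 genes, 21 with the same and 32 with opposite directions. Leaving out each of the remaining runs gave rho between -0.242 and -0.112. With 5 surrogate variables in place of runs, rho was -0.0386 and the 36 genes below this level in both genotypes divided into 14 with the same and 22 with opposite directions. These are values across genes, which are not independent replicates.

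**Figure D4:**
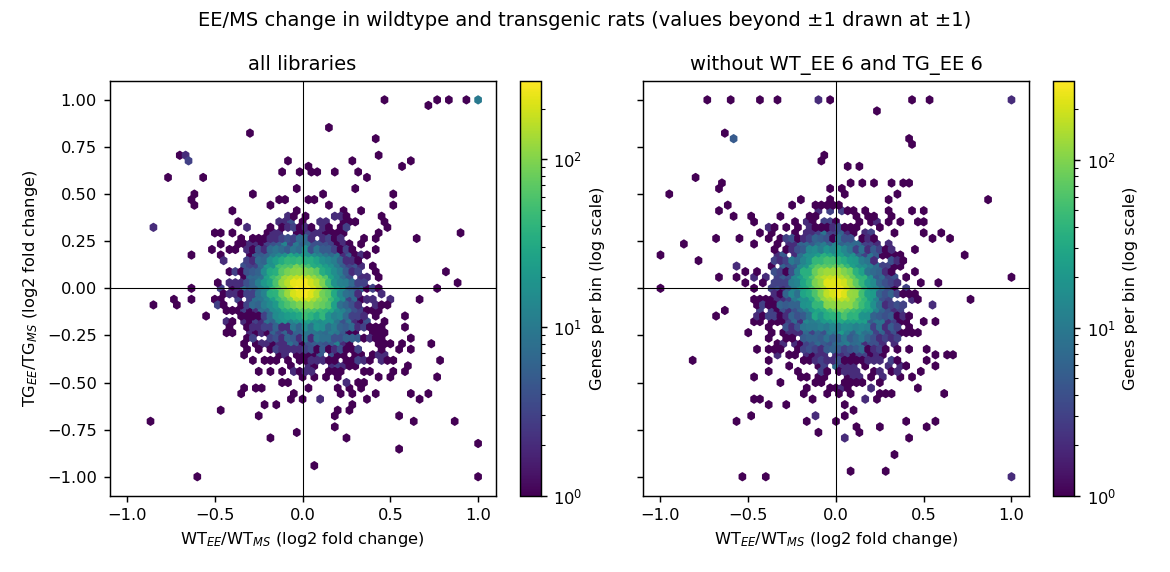
EE/MS log2 fold change in WT (x axis) and in TG (y axis) for 12657 genes, shaded by the number of genes per bin on a log scale, with all libraries and without WT_EE 6 and TG_EE 6; values beyond ±1 are drawn at ±1. The cloud is centred on 0 in both panels, and the group of genes at the upper right edge that is seen with all libraries is largely gone without these animals, where r goes from 0.181 to -0.148.

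The same animals were also compared by genotype, in the same fit. In TG/WT averaged over EE and MS, a contrast added after the values were seen, 53 of 12657 genes passed the threshold (0.419%). In TG, 17 of them were higher and 36 were lower. All 53 had the same direction in EE and in MS, compared to 6287 of all 12657 genes. The choice of genes on the average of both environments largely fixes this agreement, so it is a description. In the direction of the call, their median log2 fold change was 0.404 in EE and 0.442 in MS, and it was larger in EE for 25 genes. An unadjusted interaction p under 0.05 was found in 4 of them (7.55%), compared to 9.34% of all genes, and an unadjusted EE/MS p under 0.05 in 3 (5.66%), compared to 4.43% of all genes. The smallest adjusted interaction p among the 53 was 0.39. Within each environment, edgeR called 46 of 12657 genes in TG_EE/WT_EE and 21 of 12657 in TG_MS/WT_MS. The difference between these 2 comparisons is the interaction, in which edgeR called 0 genes and DESeq2 27.

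The largest fold changes of EE/MS moved with WT_EE 6 and TG_EE 6. A set of 50 genes with the largest weights on the first principal component of the 36 libraries, which held 21.97% of the variance, had a mean level of 4.29 log2 CPM in WT_EE 6, with 1.30 to 1.92 log2 CPM in the other WT_EE animals. In TG_EE 6 it was 5.09 log2 CPM, with 1.40 to 2.33 log2 CPM in the other TG_EE animals. No MS animal was above 2.17 log2 CPM. Of the SE animals, 3 of WT_SE reached 4 log2 CPM or more, up to 6.20 log2 CPM. These libraries were chosen on this set, so its levels are a description. The median EE/MS log2 fold change of the 50 genes was 0.28 with all animals and 0.09 without WT_EE 6 and TG_EE 6, and the number with an unadjusted p under 0.05 was 13 and 0. The largest EE/MS log2 fold change of any tested gene, 3.75 (standard error 0.988, edgeR adjusted p = 0.935), became 1.29 (standard error 1.39) without them. That gene had 169 raw counts in WT_EE 6, 443 in TG_EE 6 and at most 8 in any other EE or MS animal. It passed the minimum mean count of 50 only through WT_SE animals, which reached 1012 raw counts and have no weight in EE/MS. The number of tested genes with an EE/MS log2 fold change of 0.3 or more in either direction was 86, of which 24 were in the set, and without these animals it was 101.

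**Figure D5:**
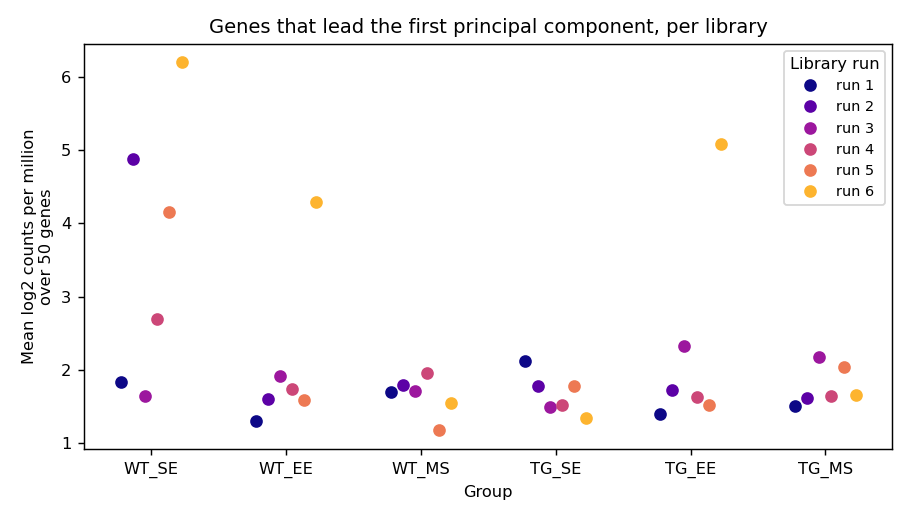
Mean log2 CPM of the 50 genes that lead the first principal component (y axis) for each library, by group (x axis) and coloured by run. WT_EE 6 and TG_EE 6 lie at 4.29 and 5.09, above all MS libraries, whose highest value is 2.17, and the highest library is of WT_SE at 6.20.

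The same animals held most EE counts of the 1 gene called when the minimum mean count was lowered to 10 or dropped. It had a mean of 21.8 raw counts over the 36 libraries, a log2 fold change of 4.69 in EE/MS (standard error 0.858) and an adjusted p of 0.0826 in edgeR at a minimum of 10. It had 85 raw counts in WT_EE 6 and 137 in TG_EE 6, at most 4 in any other EE animal, at most 2 in any MS animal and up to 392 in WT_SE. Without WT_EE 6 and TG_EE 6 its log2 fold change was 2.70 (standard error 1.26, unadjusted p = 0.0398) and its edgeR adjusted p was 1. Which cells or tissue this set of genes comes from was not tested, since no markers could be matched.

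The spread between animals was similar in EE and MS. The median SD of log2 CPM over genes was 0.153 in WT_EE, 0.142 in TG_EE, 0.142 in WT_MS and 0.137 in TG_MS, and without WT_EE 6 and TG_EE 6 it was 0.144 in WT_EE and 0.135 in TG_EE. On average over genes, the environment took 3.75% of the variance of the 24 libraries, the genotype 5.30% and their interaction 4.93%, each for 1 degree of freedom, where an even division gives 4.35%. The 6 runs took 32.2% for 5 degrees of freedom, or 6.43% each, and the remaining spread between animals 53.9% for 15, or 3.59% each. Per degree of freedom, the environment thus lay below the even division, which the run term raises, and slightly above the remaining spread, whereas genotype and interaction lay above both.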

How the data were processed

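Total striatal RNA was sequenced after poly(A) selection. The authors aligned reads with STAR 2.5.2b to the rat genome of Ensembl with the human HTT transgene added, and the deposited values are raw counts per Ensembl gene, without normalization. FastQC 0.11.4 and DESeq2 1.16.1 are also listed in the submitters' processing notes. Groups were taken from genotype and environment in the labels. Counts of all 36 libraries were fitted in R 4.3.3 with edgeR 4.0.16 (TMM, quasi-likelihood test), with 1 mean per group and the run of 6 library numbers as a block. Standard errors were derived from the F statistic, and intervals used 25 residual and 5.93 prior degrees of freedom. CPM are counts scaled by edgeR to normalized library size, and log2 CPM used a prior count of 0.5. Alternatives used DESeq2 1.42.0, svaseq of sva 3.50.0, other filters, and each animal or run left out. The version of limma was 3.58.1, and no alternative used it as a test. The procedure was tested on simulated counts. The comparison, the lists and the rules were chosen with earlier results of these data known. Without symbols (0 genes matched), the rule for named genes gave 2 identifiers in each direction, those of smallest p. Gene lists, cell type markers and sequences could therefore not be used.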

Additional observations from a re-analysis of the deposited data

Results flagged for a closer look

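Groups of 6 animals were searched for a single animal far from the others in 24 sets of values (total counts, the 4 named genes and the set of 50 genes, in each of 4 groups), and 3 were found, where chance gives about 1 in 20. In the set of 50 genes, the highest WT_EE animal had 4.29 log2 CPM and the highest TG_EE animal 5.09 log2 CPM, both from run 6. These genes lead a principal component on which both animals lie far from the other EE and MS animals. The choice of the set thus favoured both flags, and the chance rate does not apply to them. For ENSRNOG00000021031, the lowest WT_EE animal, WT_EE 5, had 41.08 CPM.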

How the results depend on the processing

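Of the alternatives tried, 41 of 44 left the count of called genes at 0 for EE/MS averaged over genotypes, 44 of 45 for WT_EE/WT_MS, 43 of 45 for TG_EE/TG_MS and 39 of 44 for the interaction. Among them, an adjusted p of at most 0.05 and no minimum fold reused the main fit, where no adjusted p reached 0.1. These settings could only give 0, and they repeat the main values of the named genes. DESeq2 called 2 genes in TG_EE/TG_MS and 27 in the interaction, and DESeq2 without WT_EE 6 and TG_EE 6, added after seeing the data, called 1 gene in EE/MS, 5 in TG_EE/TG_MS and 36 in the interaction. A minimum mean count of 10 gave 1 gene in EE/MS, as did no filter. With single animals or runs left out, edgeR called 0 to 4 genes in WT_EE/WT_MS and 0 to 16 in the interaction, and 0 in the other comparisons. The cause was not tested. The named genes kept their sign in the alternatives that gave them a value (43 for ENSRNOG00000048243, which failed the minimum of 50 counts in every library, and 44 for the others), and an adjusted p under 0.1 was seen once, for ENSRNOG00000016545 (log2 fold change -0.34, DESeq2 adjusted p = 0.0351 without WT_EE 6 and TG_EE 6).

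The labels give no replicate numbers, and they do not say whether a run pairs its animals. Deviations of EE and MS animals of the same run correlated between -0.217 and 0.292 in WT, over 0.1 in 4 of 6 pairs, and between -0.0292 and 0.21 in TG, over 0.1 in 3 of 6. Animals of different genotype from the same run and environment correlated from 0.136 to 0.531 in EE (median 0.201) and from -0.0472 to 0.333 in MS (median 0.159). Over all 90 same-run pairs the median was 0.121, compared to -0.0177 for pairs of different groups and runs. Without the replicate block, 0 genes were called in each of the 4 comparisons, and the number of genes at an unadjusted p under 0.05 was 399, 710, 460 and 814 for EE/MS, WT_EE/WT_MS, TG_EE/TG_MS and the interaction. With surrogate variables in place of runs, these numbers were 725, 583, 635 and 487. The excess of small p-values in WT and in the interaction thus depended on the covariates, and with surrogate variables the averaged comparison had more such genes than WT. Precision was lower for genes of low counts, and 6 animals per group leave interaction intervals with a median half-width of 0.235.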
